A study of Mus musculus and Rattus norvegicus with 79 samples.

Results

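The 6 genes described here encode steps by which the liver takes up and burns glucose and fructose. They are Slc2a2, Gckr, Pfkl, Pklr, Khk and Tkfc, taken as a list by name from the mouse liver count tables, where 24790 genes have a row. All 6 were measured in each of 63 liver RNA libraries.

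The first set of livers came from C57BL/6 mice without virus. It holds 27 polyA libraries in 9 groups of 3. One group was unfed at ZT10, and at each of ZT13, ZT14, ZT18 and ZT22 there was a fed group beside an unfed one. ZT is Zeitgeber time, the hours since lights on, and all mice had been trained to eat at night, so that the ZT10 livers precede the meal and the night livers were taken with or without it. The second set came from Nr3c1fl/fl mice, whose glucocorticoid receptor gene Nr3c1 is flanked by recombination sites in both arms. These mice received AAV-tbg-GFP (the control virus) or AAV-tbg-CRE 10 days before the livers were taken. The tbg promoter drives the recombinase in hepatocytes, so that other liver cells keep the receptor. This set holds 36 libraries depleted of ribosomal RNA in 12 groups of 3, of which those at ZT10 and ZT12 had no food and those at ZT13, ZT14, ZT18 and ZT22 had eaten, with no unfed night group. The labels give neither age nor sex and do not say whether the 3 libraries of a group came from separate animals, and p-values then measure only the spread between these libraries.

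Glucose and fructose enter hepatocytes through GLUT2, the transporter encoded by Slc2a2. Gckr encodes the regulatory protein that holds the liver's hexokinase in the nucleus and lets it go when fructose 1-phosphate is present. Pfkl, the liver subunit of phosphofructokinase, commits fructose 6-phosphate to glycolysis, and Pklr encodes the liver and red cell pyruvate kinase of its last step. Fructose has an entry of its own: ketohexokinase, the product of Khk, makes fructose 1-phosphate, and the triokinase encoded by Tkfc phosphorylates the glyceraldehyde that is split from it. Transcription of several of these genes in liver is known to respond to carbohydrate through ChREBP (the product of Mlxipl), which binds paired E-box-like elements, and to hepatocyte factors such as HNF1 and HNF4.

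Slc2a2 lies at chr3:28697903-28728361 and Pklr at chr3:89136122-89146815 (GRCm38.p6, the assembly of mm10). Khk at chr5:30921436-30931248 and Gckr at chr5:31297266-31327302 share a chromosome, with 366 kb between them. Pfkl lies at chr10:77986947-78009807 and Tkfc at chr19:10592197-10605482. The deposited tables hold 11 RefSeq rows for the 6 genes, and isoforms could not be told apart from them. Both Pfkl rows hold the same counts in every library. The 4 Khk rows, which stand for different isoforms, hold 279141 or 279136 counts over the C57BL/6 libraries. The pair of Pklr rows, for the transcripts with the upstream and the downstream first exon, hold 197353 and 197176 counts. Fits on all rows gave the same calls for every row of a gene, 4 genes for food and 2 genes for CRE, each as a mean over times.

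The 4 promoters below are shown because they hold a glucocorticoid receptor peak listed as concordant between replicates, or a match to a motif searched here. Peaks found only in other lists are not marked. Each is the 250 bases before a RefSeq start site in GRCm38.p6, written 5′ to 3′ on the strand of the gene. In Slc2a2 (chr3:28697653-28697902, plus strand) capitals mark the 149 bases under a receptor peak listed as concordant between replicates. In Pklr (chr3:89136373-89136622, plus strand, before the downstream start site) capitals mark the carbohydrate response element. In Khk (chr5:30921309-30921558, plus strand) they mark, in order, an E-box, an HNF1 half-site and a GC box. In Gckr (chr5:31297313-31297562, plus strand) they mark a receptor half-site on the opposite strand and an HNF1 half-site.
Slc2a2: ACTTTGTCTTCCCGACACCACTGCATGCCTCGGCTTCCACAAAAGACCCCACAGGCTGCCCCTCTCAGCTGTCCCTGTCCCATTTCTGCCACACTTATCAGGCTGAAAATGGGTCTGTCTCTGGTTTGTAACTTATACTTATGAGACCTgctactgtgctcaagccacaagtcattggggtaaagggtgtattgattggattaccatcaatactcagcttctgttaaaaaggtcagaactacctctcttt
Pklr: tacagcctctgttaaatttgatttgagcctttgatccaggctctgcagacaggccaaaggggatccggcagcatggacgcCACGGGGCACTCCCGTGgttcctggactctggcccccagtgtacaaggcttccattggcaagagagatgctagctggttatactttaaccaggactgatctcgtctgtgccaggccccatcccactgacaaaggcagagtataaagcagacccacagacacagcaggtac
Khk: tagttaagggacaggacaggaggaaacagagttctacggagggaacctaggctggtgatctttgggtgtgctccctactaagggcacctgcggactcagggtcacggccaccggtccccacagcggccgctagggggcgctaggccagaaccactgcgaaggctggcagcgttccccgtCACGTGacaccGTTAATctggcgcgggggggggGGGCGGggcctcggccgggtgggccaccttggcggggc
Gckr: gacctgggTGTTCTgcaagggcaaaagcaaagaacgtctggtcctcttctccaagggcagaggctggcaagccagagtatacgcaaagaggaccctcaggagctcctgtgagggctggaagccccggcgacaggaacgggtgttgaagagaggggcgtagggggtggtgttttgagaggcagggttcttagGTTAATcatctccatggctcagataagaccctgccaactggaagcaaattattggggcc

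The motifs searched on both strands were CACGTG (E-box), CACGNG and CNCGTG with 5 bases between them (carbohydrate response element, which can overlap an E-box), AGAACA (receptor half-site), GTTAAT (HNF1 half-site) and GGGCGG (GC box). They were chosen with the sequences in view, and a match is a description of letters only. The carbohydrate response element of Pklr lies 170 to 154 bases before the start site, and 13 of 32817 promoter windows of this length hold one (0.0396%). The E-box of Khk lies 71 to 66 bases upstream (6.02% of windows hold one), its HNF1 half-site 60 to 55 bases upstream (6.44%) and its GC box 38 to 33 bases upstream (32.7%). The half-sites of Gckr lie 242 to 237 bases upstream (16.1% of windows) and 59 to 54 bases upstream. The windows of Slc2a2, Pfkl, Tkfc and the upstream start site of Pklr held none of these 5 motifs.

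Library totals ran from 23.87 to 91.77 M counts for C57BL/6 (median 43.6 M) and from 34.64 to 78.76 M for Nr3c1fl/fl (median 53.4 M). Members had from 185 counts (Pfkl) to 24800 counts (Khk) in a library. Counting error, taken as if each count were independent, was below the spread between libraries in 124 of 126 combinations of gene and group. Among low counts, 75.72 to 84.61% were even in C57BL/6 and 77.25 to 85.07% in Nr3c1fl/fl libraries. If counts came in pairs, the counting errors given here are too small. Why low counts were mostly even was not tested. The other 2 were Pfkl at ZT10, with a counting CV of 2.94% against a spread of 1.59% in C57BL/6 and of 6.67% against 5.96% in GFP livers. Hepatocyte markers summed to 77742 to 122238 CPM (library-normalised read counts, scaled to the same library total) in C57BL/6 and to 41961 to 72425 CPM in Nr3c1fl/fl livers. Some libraries stand apart. Replicate 1 of the fed livers at ZT14 held bile duct markers at 104 CPM (18.6 to 37.9 CPM in the other 26), and replicate 3 of the unfed livers at ZT18 held pancreas markers at 343 CPM (at most 33.8 CPM in the others). Cpa1, Pnlip and Ctrb1, 3 of the 5 pancreas markers, were at 0 in 20, 22 and 17 of 27 libraries. In 6 Nr3c1fl/fl libraries a row that matched no gene, NR_046233, took over 20% of the counts: all 3 GFP livers at ZT10, replicate 1 of CRE at ZT10 and replicates 1 and 2 of GFP at ZT12. In whole liver, fewer cells of a type and less RNA per cell cannot be told apart. Transcript lengths were not used here, so no level is compared between genes. Whether 3 and 3 libraries overlap is given as a description. The share of all genes whose libraries do not overlap was not counted.

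The comparison of fed with unfed livers asks which of these transcripts differ with the meal at the same hour. In the unfed arm the hour and the length of the fast grow together. A change over time there therefore cannot be assigned to either. Pklr, Tkfc, Khk and Gckr were higher in fed livers late in the night, at ZT18 and ZT22, and showed no called difference at ZT13 and ZT14. Slc2a2 and Pfkl passed the threshold at none of the 4 times. Averaged over the 4 times, Pklr was higher in fed livers by 0.99 ± 0.08 (log2 fold change ± SE), Tkfc by 0.66 ± 0.07, Khk by 0.35 ± 0.06 and Gckr by 0.21 ± 0.04. A rise or fall in a food comparison, here and below, is fed minus unfed at the same hours, not a change from ZT10.

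**Figure D1:**
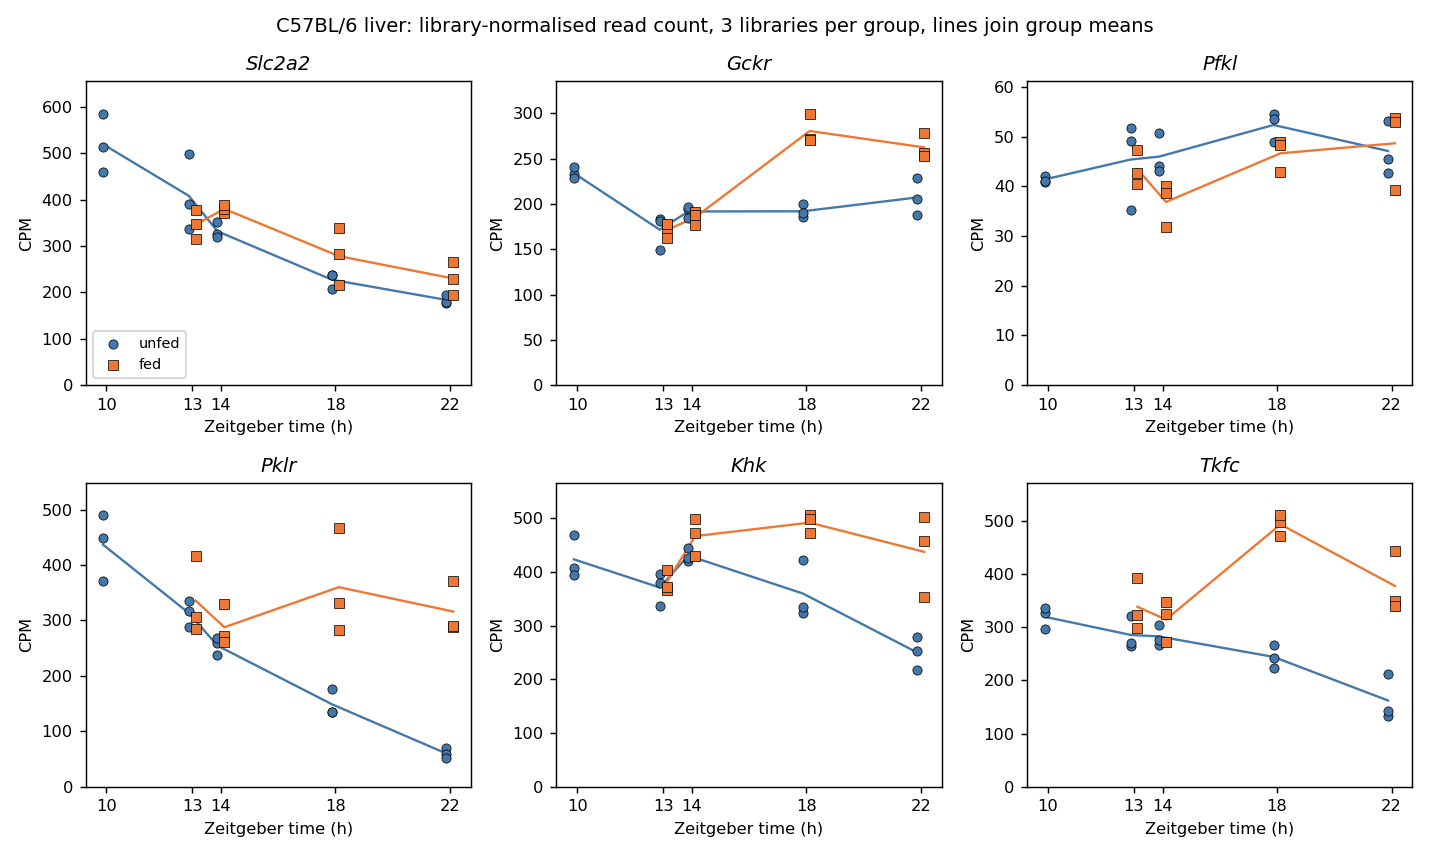
Library-normalised read counts (CPM, y axis from 0) of the 6 genes in each C57BL/6 liver library against Zeitgeber time (x axis). Circles are unfed and squares fed livers, 3 per group, and lines join group means: Slc2a2 falls in both arms, while the 3 fed libraries of Pklr, Khk, Tkfc and Gckr lie above the 3 unfed ones at ZT18 and ZT22.

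In counts, 4 of 6 members were called higher and none lower at ZT18, where 13.3% of 14744 tested genes were higher and 13.1% lower. At ZT22 the same 4 were higher, with 10.5% of all genes higher and 9.77% lower. In the mean over 4 times they were again the 4 called, with 17.5% of all genes higher and 17.9% lower. At ZT13 edgeR called 0 of 6 members (0.468% of genes were higher and 0.631% lower), DESeq2 called 0, and 0 had an unadjusted p under 0.05. At ZT14 edgeR and DESeq2 called 0 of 6 (2.26% and 3.38% of genes), and 1, Pfkl, had an unadjusted p under 0.05. The food effect itself changed over the 4 times, by the test of the interaction, for 4 of 6 members (8.1% of all genes): Pklr (adjusted p = 4.365e-07), Tkfc (0.00116), Gckr (0.00374) and Khk (0.0114).

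Slc2a2 mRNA fell through the night whether or not the mice ate. Unfed livers held 459, 514 and 585 CPM at ZT10 and 177, 179 and 194 CPM at ZT22, and the groups did not overlap. The unfed mean at ZT22 was 35.3% of the ZT10 mean, and the fed mean at ZT22 was 44.2% of it. Fed livers were at 194, 229.6 and 266 CPM at ZT22, so that the lowest fed library lay just under the highest unfed one. The test of time called Slc2a2 in unfed (adjusted p = 3.45e-08) and in fed livers (0.00103). At ZT14 the 3 fed libraries (371, 379.8 and 388 CPM) lay above the 3 unfed ones (319, 325 and 351 CPM), but the difference of 0.20 ± 0.14 did not pass (adjusted p = 0.481). At ZT18 fed livers spread from 215 over 282 to 338 CPM around unfed ones at 208, 237 and 237 CPM. The food difference there was 0.29 ± 0.14 (adjusted p = 0.135) and became a call, at 0.46 (adjusted p = 0.0263), without replicate 1 of the fed livers. In the mean over times it was 0.14 ± 0.07 (adjusted p = 0.12). Without that library (0.19, adjusted p = 0.0263) or without replicate 3 of the unfed livers at ZT13 (0.20, adjusted p = 0.0246) this mean was called as well.

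Gckr was lower at ZT13 than at ZT10 in both arms and was higher in fed than in unfed livers at ZT18 and ZT22. It was at 228, 233 and 240.4 CPM at ZT10. By ZT13 unfed livers held 149, 182 and 184 CPM and fed livers 162, 173 and 177 CPM, which overlap. At ZT18 fed livers stood at 270.2, 272 and 299.7 CPM against 185, 189.9 and 200.2 CPM in unfed livers, with no overlap, a rise of 0.55 ± 0.09 (adjusted p = 3.61e-05). At ZT22 they held 253, 256 and 278 CPM against 187, 205 and 229 CPM, again without overlap, a rise of 0.34 ± 0.09 (adjusted p = 0.00536). The ZT22 call was lost when only the 2 groups were fitted (0.35, adjusted p = 0.0698). Time was called in both arms, with adjusted p = 0.00209 in unfed and 2.19e-07 in fed livers.

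Pfkl, the gene of a committed glycolytic step, passed the food test at none of the 4 times. Its lowest library held 31.8 CPM and its highest 54.6 CPM, and the highest group mean was 1.42 times the lowest. At ZT14 fed livers held 31.8, 38.6 and 40.1 CPM and unfed ones 43.2, 44.1 and 50.6 CPM, which do not overlap, but the difference of -0.31 ± 0.13 was not called (adjusted p = 0.167). At ZT22 the groups overlapped, with 39.2, 52.9 and 53.8 CPM fed and 42.7, 45.5 and 53.1 CPM unfed. In the mean over times Pfkl was at -0.12 ± 0.06 (adjusted p = 0.142), and it was called at -0.15 (adjusted p = 0.0423) without replicate 3 of the unfed livers at ZT13.

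Pklr had the widest range of the 6 genes in this set. Without food it fell steadily: 372, 449 and 489.6 CPM at ZT10, 288, 317 and 335 CPM at ZT13, 237, 259 and 268 CPM at ZT14, 135, 135 and 176 CPM at ZT18, and 51.9, 58.9 and 69.1 CPM at ZT22. The unfed mean at ZT22 was 13.7% of the ZT10 mean, a 7.28-fold fall. Fed livers kept 285 to 416 CPM at ZT13, 262 to 329.7 CPM at ZT14, 282 to 466 CPM at ZT18 and 288 to 370.3 CPM at ZT22, and time was not called among them (adjusted p = 0.39). The fed and unfed libraries overlapped at ZT13 and ZT14 and separated at ZT18 and ZT22. Pklr was 2.42-fold higher in fed livers at ZT18 (log2 1.275 ± 0.17, adjusted p = 4.34e-06) and 5.27-fold higher at ZT22 (2.40 ± 0.18, adjusted p = 3.57e-10). The fed mean at ZT22 was 72.4% of the ZT10 mean.

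Khk, the first step of fructose use, was higher in fed livers at the same hours as Pklr, by less. Unfed livers held 394, 408 and 468 CPM at ZT10, 323, 335 and 421.5 CPM at ZT18 and 218, 252 and 279.5 CPM at ZT22. Fed livers held 472, 498 and 505 CPM at ZT18 and 352, 457 and 503 CPM at ZT22. Every fed library lay above every unfed one at both hours, and the groups overlapped at ZT13 and ZT14. The difference was 0.45 ± 0.12 at ZT18 (adjusted p = 0.00623) and 0.81 ± 0.12 at ZT22 (adjusted p = 2.39e-05). Time was called in unfed (adjusted p = 7.61e-05) but not in fed livers (0.068). That fed result depends on single libraries and on the tool. It passed without replicate 2 (adjusted p = 0.0433) or replicate 3 (0.0399) of the fed ZT22 group, and with DESeq2 (0.0431). It also passed without the 2 libraries with high bile duct or pancreas markers (0.0383).

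Tkfc, which serves the next step but one of fructose use, rose above its ZT10 level in fed livers and fell below it in unfed ones. It was at 296, 327 and 336 CPM at ZT10. At ZT18 fed livers held 471, 499 and 510.3 CPM, 154% of the ZT10 mean, and unfed livers 224, 242 and 267 CPM. At ZT22 they held 340.2, 349 and 443 CPM against 133, 142 and 212 CPM. Fed and unfed libraries did not overlap at these hours. The rise was 1.01 ± 0.14 at ZT18 (adjusted p = 1.15e-05) and 1.22 ± 0.15 at ZT22 (adjusted p = 1.25e-06). Time was called in both arms (adjusted p = 8.16e-05 unfed and 0.00321 fed).

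Across the members, time was called for 5 of 6 in unfed livers, all but Pfkl (42.5% of all genes), and for 3 of 6 in fed livers, Slc2a2, Gckr and Tkfc (37.2% of all genes). When replicate 3 of the fed ZT22 group was left out, the fed count was 5, with Khk and Pfkl added (Pfkl adjusted p = 0.0207). The plot of group means relative to ZT10 shows these courses side by side.

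**Figure D2:**
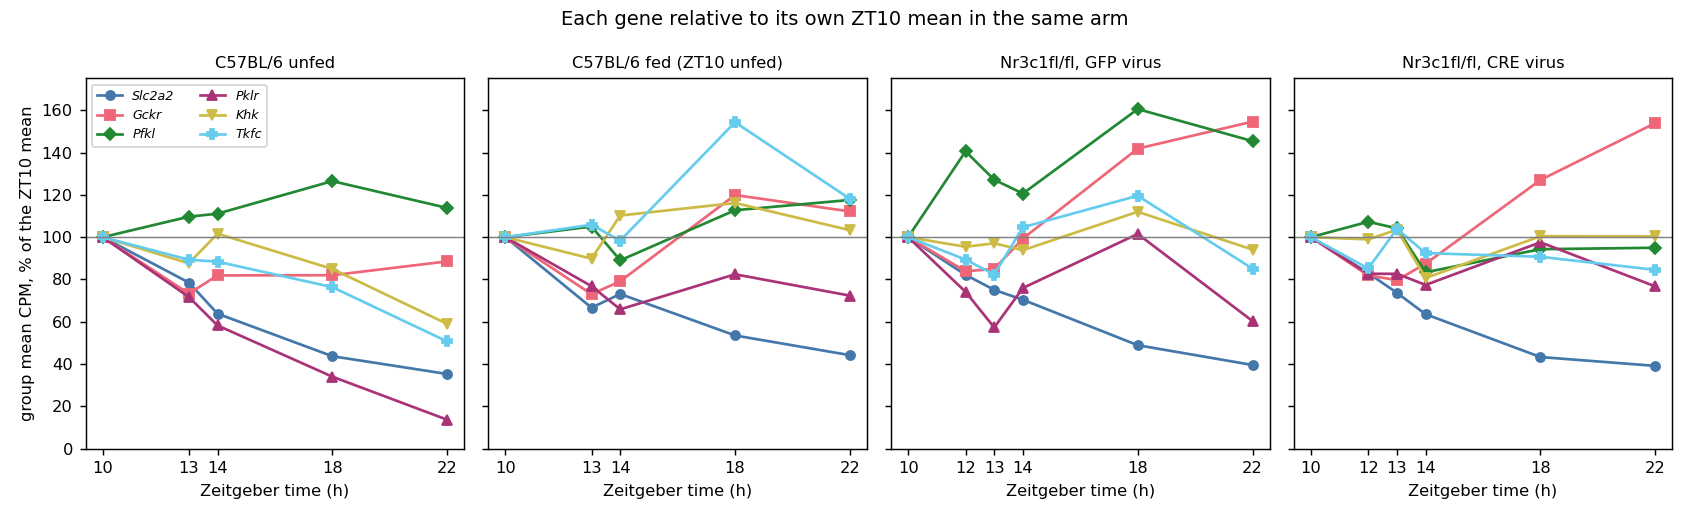
Group mean CPM of each gene as a percent of its own ZT10 mean (y axis) against Zeitgeber time (x axis), with 1 panel per arm; the fed C57BL/6 panel starts from the unfed ZT10 group. Pklr ends at 13.7% and Slc2a2 at 35.3% in unfed livers, Tkfc peaks at 154% in fed livers, and Gckr ends at 155% with GFP and 154% with CRE.

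Other measures moved with food beside these genes. All 6 endothelial markers were lower in fed livers in the mean over times, 6 of 6 were lower at ZT18 and 3 of 6 at ZT22. Their sum was 183 to 198 CPM fed and 263 to 284 CPM unfed at ZT18, and 219.8 to 232 CPM fed and 303 to 316 CPM unfed at ZT22, and none of them was at 0 in any library. Of 7 hepatocyte markers 1 was higher and 2 lower in fed livers at each of these hours. The hepatocyte sum overlapped, at 98523 to 114518 CPM unfed and 99759 to 122238 CPM fed at ZT18. Pancreas markers summed to 28.3 to 33.8 CPM in fed livers and to at most 15.0 CPM in unfed livers at ZT22, and 1 of the 3 tested was higher there. At ZT18 2 of the 3 were lower in fed livers. The sum there was 15.5 to 24.2 CPM fed and 15.0 to 343 CPM unfed, the highest being the library named above. Cela1 (median 11.7 CPM) and Cela2a (5.78 CPM) were at 0 in no C57BL/6 library, while Cpa1, Pnlip and Ctrb1 had a median of 0. Among 3 red blood cell markers 1 was higher in fed livers at ZT22 and in the mean, and in the mean 2 of 6 stellate cell markers and 1 of 5 bile duct markers were higher. The part of these cell type markers in the results was not tested. The 4 calls at ZT18 held without the 2 libraries with high bile duct or pancreas markers, of which only the unfed one belongs to a ZT18 group. Neither of these belongs to a ZT22 group, so leaving them out is no check of the 4 calls at ZT22.

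The GFP and CRE livers ask whether the members depend on the glucocorticoid receptor in hepatocytes. Nr3c1 mRNA checks the labels. It was lower in CRE livers by a mean log2 of -0.63 ± 0.06 (adjusted p = 1.85e-09), and the 3 CRE libraries were below the 3 GFP libraries at each of the 6 times. At ZT12, for example, CRE livers held 102.5 to 126.3 CPM and GFP livers 198 to 233 CPM. At ZT18 (adjusted p = 0.342) and ZT22 (0.141) the difference did not pass. The row counts the whole transcript, and the labels do not say which exons are excised, so that this level is no measure of remaining receptor.

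Pklr and Khk were lower in CRE livers on average, and Slc2a2 and Gckr changed over the hours in both arms. In this set ZT10 and ZT12 were unfed and all later hours fed. Hour and food therefore cannot be told apart in any change over time within an arm. Over 6 times Pklr was at -0.37 ± 0.11 (adjusted p = 0.022) and Khk at -0.28 ± 0.08 (adjusted p = 0.0162) in CRE against GFP livers. The mean level was lower in CRE livers at 6 of 6 times for both, and also for Slc2a2 and Gckr, which were not called. Of the 24 single-time differences of these 4 genes, none of them called, 9 changed sign under some alternative. No member was called at any single time, also where the libraries of both arms did not overlap.

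**Figure D3:**
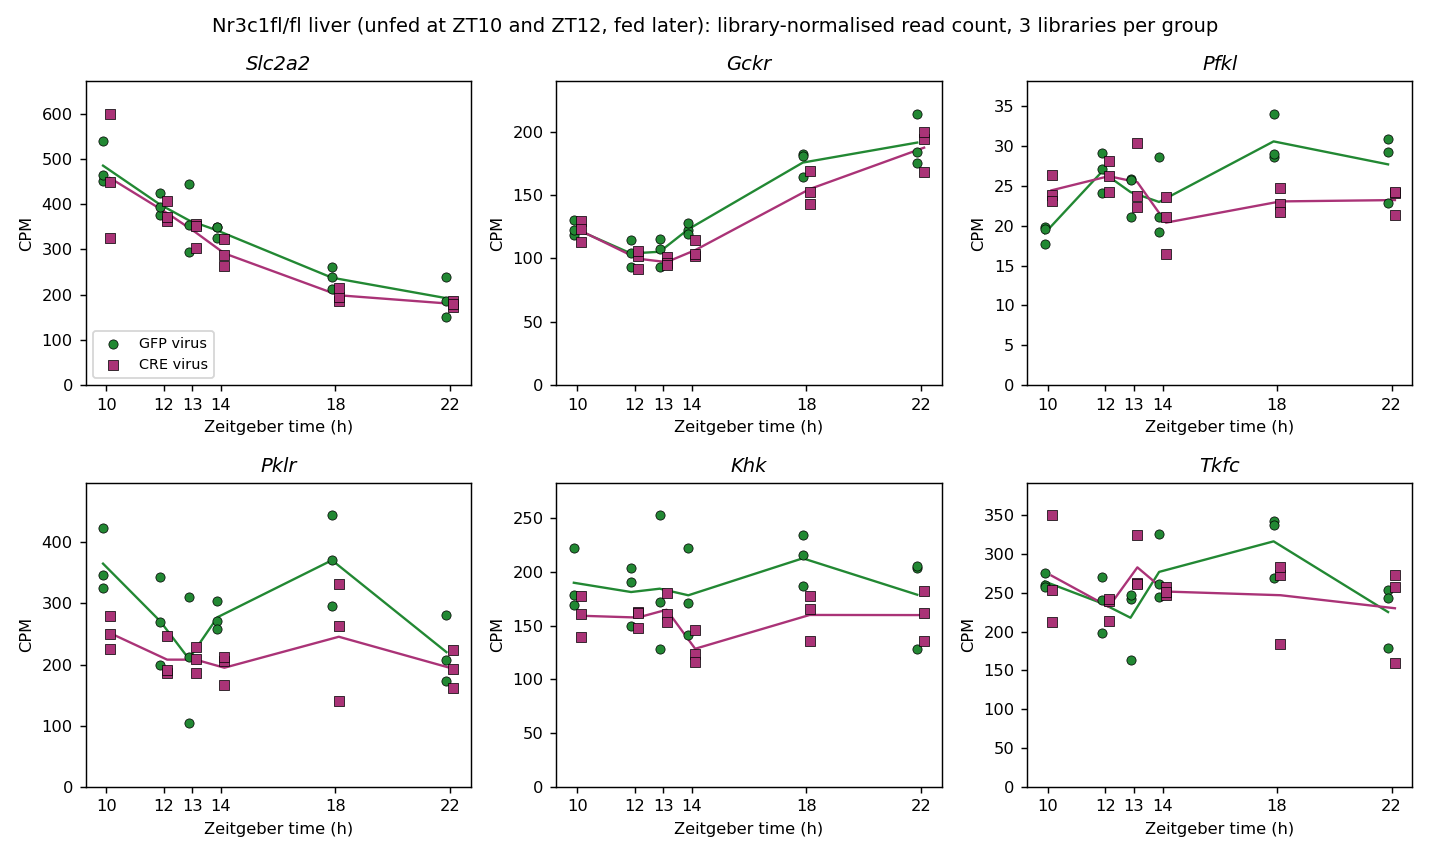
Library-normalised read counts (CPM, y axis from 0) of the 6 genes in each Nr3c1fl/fl liver library against Zeitgeber time (x axis). Circles are GFP and squares CRE livers, 3 per group, and lines join group means. Livers from ZT13 on came from mice that had eaten. Slc2a2 falls and Gckr rises in both arms.

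In the mean over 6 times, 2 of 6 members were lower and none higher, while 6.64% of 15712 tested genes were lower and 7.92% higher. At single times edgeR and DESeq2 called 0 of 6 each. Shares of all genes called, first higher and then lower, were 0.223% and 0.471% at ZT10, 1.5% and 2.25% at ZT12, 1.89% and 3.15% at ZT13, and 0.586% and 0.987% at ZT14. At ZT18 they were 0.0382% and 0.0636%, and at ZT22 0.0891% and 0.0573%. At an unadjusted p under 0.05 stood Pfkl at ZT10, Gckr and Khk at ZT14, and Pfkl, Pklr and Khk at ZT18, 1, 2 and 3 of 6, and 0 at the other 3 times. The change of the CRE effect over time was called for 0 of 6 members by edgeR and by DESeq2 (0.687% of all genes), with 1, Pfkl, at an unadjusted p under 0.05.

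Slc2a2 fell over the hours in GFP and in CRE livers. GFP livers held 452, 465 and 539 CPM at ZT10 and 150.3, 187 and 239 CPM at ZT22, and CRE livers 325, 449 and 600.1 CPM at ZT10 and 174, 178 and 186 CPM at ZT22. The ZT22 mean was 39.6% of the ZT10 mean with GFP and 39.2% with CRE. Time was called in both (adjusted p = 8.27e-07 and 2.33e-07). The CRE and GFP libraries overlapped at 5 of 6 times and separated at ZT14, at 263, 288 and 323 CPM against 325, 349.8 and 349.9 CPM. The mean difference of -0.14 ± 0.07 was not called (adjusted p = 0.164), and was at -0.18 (adjusted p = 0.0388) without replicate 3 of the CRE livers at ZT10, the one at 600.1 CPM.

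Gckr rose late in the fed night in both arms. GFP livers went from 93.4, 107 and 115 CPM at ZT13 to 176, 184 and 214 CPM at ZT22, and CRE livers from 94.4, 96.0 and 101 CPM to 168, 194 and 200.04 CPM. The ZT22 means were 155% and 154% of the ZT10 means (time called in both, adjusted p = 3.3e-09 and 2.51e-09). At ZT14 the 3 CRE libraries (102, 103 and 114 CPM) lay below the 3 GFP ones (119, 122 and 128 CPM). Its mean difference of -0.10 ± 0.04 was not called (adjusted p = 0.0749). Leaving out any of 4 libraries made it a call, namely replicate 3 of GFP at ZT12, replicate 1 of GFP at ZT13, replicate 2 of CRE at ZT18 or replicate 3 of GFP at ZT22, with adjusted p from 0.0351 to 0.0491.

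Pfkl showed no called difference between the arms. GFP livers held 17.8, 19.5 and 19.9 CPM at ZT10 and 28.7, 29.0 and 34.1 CPM at ZT18, and time was called among them (adjusted p = 0.00516). CRE livers held 23.2, 23.9 and 26.3 CPM at ZT10 and 21.7, 22.7 and 24.8 CPM at ZT18, and time was not called (0.263). CRE libraries thus lay above all GFP libraries at ZT10 and below all of them at ZT18. The single differences were 0.36 ± 0.15 (adjusted p = 0.324) and -0.41 ± 0.14 (adjusted p = 0.4), and the test of their change over the 6 times gave an adjusted p of 0.294. Among these ZT10 libraries, all 3 with GFP are ones with over 20% of their counts in row NR_046233, and without them no GFP library would remain. With that share as a covariate the Pfkl difference at ZT10 was 0.33 (adjusted p = 0.558).

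Pklr libraries with CRE lay below those with GFP at ZT10, at 226, 250.02 and 279 CPM against 325, 347 and 424 CPM. They did so again at ZT14, at 166, 206 and 213 CPM against 258, 271 and 304 CPM. Neither difference was called, with -0.54 ± 0.27 at ZT10 (adjusted p = 0.477) and -0.51 ± 0.27 at ZT14 (adjusted p = 0.439). At ZT18 both arms spread widely, from 141 over 263 to 333 CPM with CRE and from 297 over 371 to 444 CPM with GFP. At ZT13 the means were equal within their spread, with 104, 213 and 311 CPM in GFP livers and 186, 209 and 229 CPM in CRE livers. The single differences ran from -0.59 ± 0.27 at ZT18 (adjusted p = 0.577) to -0.01 ± 0.27 at ZT13. The called mean of -0.37 became -0.34 (adjusted p = 0.07) when ZT10 was left out, and -0.40 (adjusted p = 0.0676) when the other libraries with over 20% of counts in NR_046233 were left out too. With that share as a covariate it was -0.42 (adjusted p = 0.0101). Time was called in GFP livers at an adjusted p of 0.0405, a call that ended when any of 11 of the 18 GFP libraries was left out (0.00561 to 0.0947), and was not called in CRE livers (0.671).

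Khk was the other called gene. Its CRE and GFP libraries separated at ZT18, at 136, 166 and 178 CPM against 187, 216 and 235 CPM, and overlapped at the other 5 times. At ZT14 CRE livers held 116, 124 and 146 CPM and GFP livers 142, 171 and 222 CPM, a difference of -0.47 ± 0.20 (adjusted p = 0.276). The mean difference stayed called without ZT10 (-0.28, adjusted p = 0.0299) and also without the other high NR_046233 libraries (-0.31, adjusted p = 0.0422). Neither arm showed a called change over time (adjusted p = 0.807 with GFP and 0.6 with CRE).

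Tkfc, the member with the largest mean food difference after Pklr in C57BL/6 livers, was at -0.01 ± 0.08 in the mean over 6 times (adjusted p = 0.947). CRE libraries lay above all GFP libraries at ZT13 (262, 262 and 325 CPM against 164, 242 and 248 CPM, 0.38 ± 0.19, adjusted p = 0.314) and overlapped them at the other times. At ZT18 CRE livers held 185, 274 and 283 CPM and GFP livers 269, 337 and 343 CPM. No change over time was called with GFP (adjusted p = 0.127) or CRE (0.659). In all, time, which here includes the change from unfed to fed, was called for 4 of 6 members in GFP livers (46.9% of all genes). In CRE livers it was called for 2 of 6, Slc2a2 and Gckr (41.5%).

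**Figure D4:**
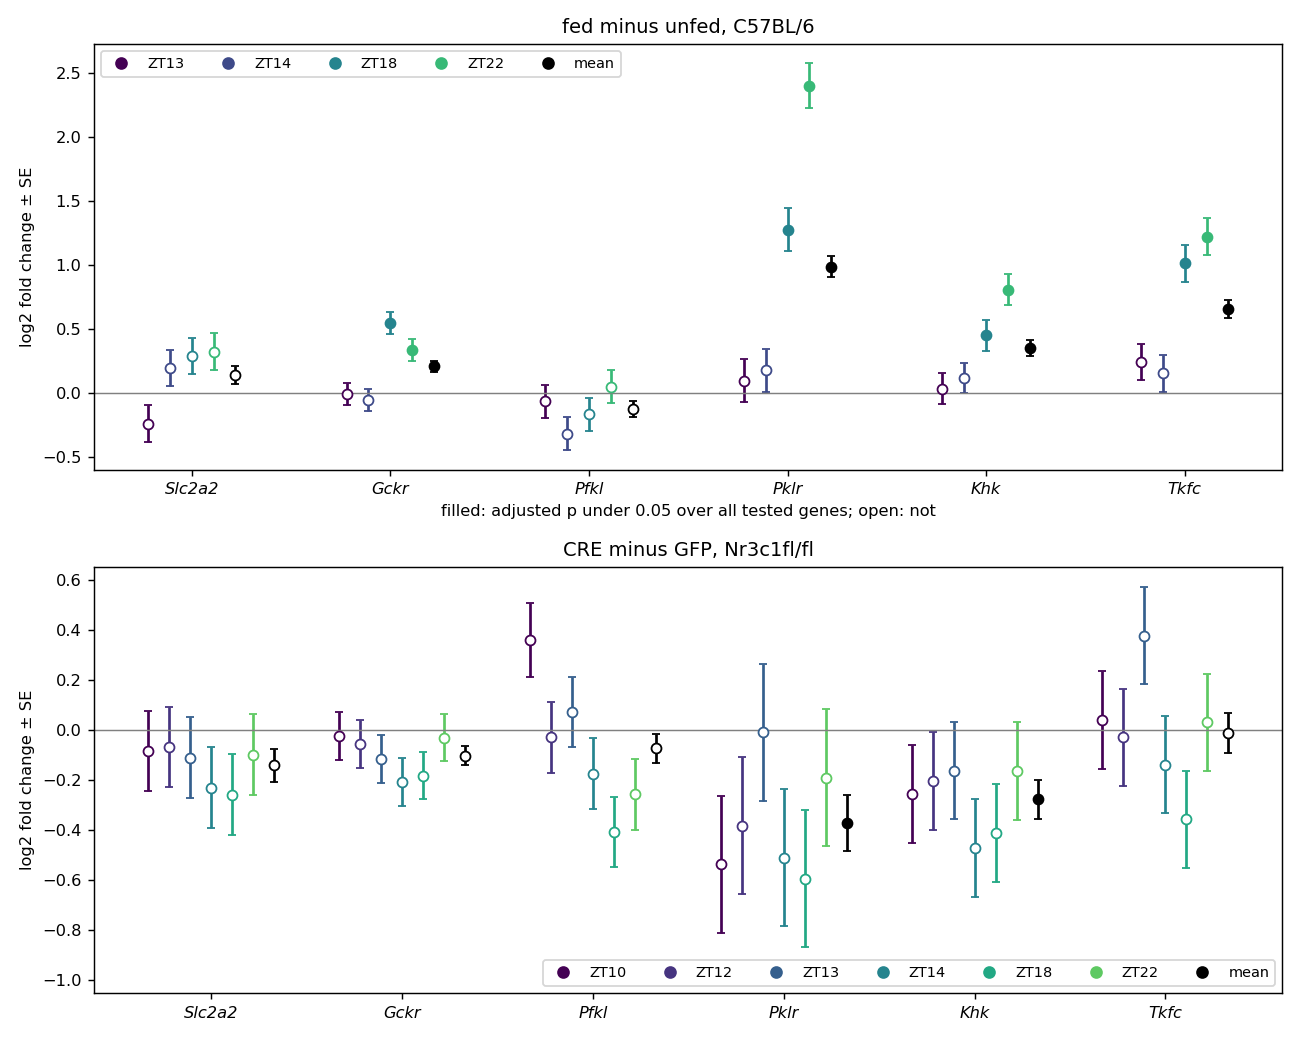
Log2 fold change ± SE (y axis) of each gene (x axis) by time and as the mean over times, fed minus unfed in C57BL/6 livers (top) and CRE minus GFP in Nr3c1fl/fl livers (bottom). Filled points passed an adjusted p of 0.05 over all tested genes and open ones did not: Pklr reaches 2.40 with food at ZT22, and with CRE only the means of Pklr and Khk are filled.

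Beside the CRE difference, 4 of 7 hepatocyte markers were lower in CRE livers in the mean over times and none was higher. At ZT12 their sum was 61891 to 72425 CPM with GFP and 49465 to 55787 CPM with CRE, and at ZT13 it was 60026 to 63789 and 50675 to 54450 CPM. It also separated at ZT14, at 51987 to 63398 against 45026 to 47693 CPM, and at ZT18, at 57556 to 66254 against 46284 to 53902 CPM. The sum overlapped at ZT10, at 49049 to 59646 against 41961 to 53566 CPM, and at ZT22. Pklr libraries separated at ZT10 and ZT14 and Khk libraries at ZT18, and both overlapped at their other times. With 3 libraries per group, the hours of overlap cannot tell whether the sum and these genes go together. In the mean, none of the 6 endothelial or 7 Kupffer cell markers was called, and at ZT14 1 Kupffer cell marker was lower. Of 3 red blood cell markers, 1 was higher in CRE livers in the mean and at ZT22. At ZT22 their sum was 66.2 to 88.6 CPM with GFP and 111 to 124 CPM with CRE. Over all Nr3c1fl/fl libraries the medians were 82.3 CPM for Alas2, 1.51 CPM for Hba-a1 and 5.29 CPM for Hbb-bs. The part of the hepatocyte and red blood cell markers in the Pklr and Khk results was not tested.

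The step from ZT12 unfed to ZT13 fed brackets the first meal, with hour and food changing together. No member was called in it. In GFP livers edgeR and DESeq2 called 0 of 6, with 0 at an unadjusted p under 0.05 (shares of all genes: 1.91% higher, 1.04% lower). With CRE the counts were 0, 0 and 0 (5.77% higher and 3.61% lower). The differences of GFP livers ran from -0.37 ± 0.27 (Pklr) to 0.02 ± 0.20 (Khk). Those of CRE livers ran from -0.17 ± 0.16 (Slc2a2) to 0.29 ± 0.19 (Tkfc). The difference between both steps was called for 0 members (0 of all genes, 0% higher and 0% lower, with 634 at an unadjusted p under 0.05), and was widest for Tkfc at 0.41 ± 0.28 (adjusted p = 0.999).

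The genes whose levels ran most like each member were sought by Pearson's r of log2 CPM over the 27 C57BL/6 libraries, among 9983 genes with a mean of at least 5 CPM. These libraries share hours, food and depth, and r is given as a description. Pklr ran with Hcn3 (r = 0.962, and 0.80 over the 36 Nr3c1fl/fl libraries), a channel gene whose interval overlaps Pklr by 41 bases. Hcn3 rose with food at ZT22 by 2.53 ± 0.26, and as the labels do not say whether counting used strand, reads of the neighbours cannot be told apart with certainty. Slc25a1, the mitochondrial citrate carrier, followed at 0.928 and Snrpn at 0.927, with 0.22 and 0.17 in Nr3c1fl/fl livers. Slc2a2 ran with Dnase2b (0.928), Shpk (0.926) and the bile acid transporter gene Slc10a1 (0.925), and these kept 0.71, 0.85 and 0.78 in the other set. Gckr ran with Cutal (0.938), Pxdc1 (0.909) and Pter (0.908), which kept 0.78, 0.86 and 0.77. Tkfc ran with Hes6 (0.919), Fam47e (0.907) and the fatty acid synthase gene Fasn (0.898), at 0.34, 0.33 and 0.30 in the other set. Khk ran with Gstt1 (0.93) and the enolase genes Eno1 and Eno1b (both 0.905), near-identical copies whose reads may be shared. In the other set these stood at 0.44, 0.604 and 0.595. Pfkl had looser neighbours, Cdc42bpb (0.80), Tfe3 (0.754) and Gucd1 (0.744), at 0.68, 0.45 and 0.59 in the other set.

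Cyb561a3 overlaps Tkfc by 4636 bases on the opposite strand. It did not share the food difference (0.15 ± 0.13 at ZT22, adjusted p = 0.458) and had a median of 21.7 CPM. A gene on the opposite strand of Slc2a2, 1700112D23Rik, overlaps it by 26139 bases and was not analysed here.

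The rest of the pathway was read from a list of 38 genes of sugar transport, glycolysis, pyruvate and lactate handling, the polyol side and regulators, of which 36 were tested in C57BL/6 and 38 in Nr3c1fl/fl livers. In the mean food effect 8 were higher, 5 lower and 23 not called, with a median of -0.02 against 0.01 over all genes. Of all tested genes 17.5% were higher and 17.9% lower there. Mlxipl, which encodes ChREBP, rose by 0.36 ± 0.07 and Eno1, an enolase of lower glycolysis, by 0.28 ± 0.05. Txnip, an arrestin-like brake on glucose uptake, fell by 1.17 ± 0.15. The other lower genes were the sugar transporter genes Slc2a1, Slc2a5 and Slc2a8 and the lactate dehydrogenase gene Ldha, named after their values were seen. At ZT18 there were 6 higher and 7 lower genes (13.3% and 13.1% of all genes). Eno1 rose by 0.47 ± 0.11, while Mpc1, a subunit of the mitochondrial pyruvate carrier, fell by 0.62 ± 0.14. The hepatocyte factor gene Hnf4a fell by 0.46 ± 0.12. At ZT22 there were 8 higher and 2 lower genes (10.5% and 9.77% of all genes). Mlxipl was at 0.68 ± 0.13, Eno1 at 0.63 ± 0.11 and Txnip at -1.51 ± 0.31. The other lower gene there was Aldoa, an aldolase gene, at -0.34 ± 0.10. The food effect changed with time for 4 genes (8.1% of all genes), Eno1 (adjusted p = 0.0123), Gapdh (0.0379), Aldoa (0.0413) and Mpc1 (0.0445).

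In CRE against GFP livers, 2 genes of this list were higher, 8 lower and 28 not called in the mean over times. Of all genes 7.92% were higher and 6.64% lower. The list had a median of -0.10 against -0.0043 over all genes. Hnf4a, which also stands among the 7 hepatocyte markers, was at -0.40 ± 0.05 and Pgk1, a lower glycolytic enzyme gene, at -0.18 ± 0.04. Mpc1 was higher by 0.21 ± 0.04, and the other higher gene, Slc2a9 (0.20 ± 0.06), a transporter of urate and sugars, is named after its value was seen. Time was called for 18 of 38 list genes with GFP (46.9% of all genes) and 18 with CRE (41.5%). Slc2a9 and the lactate carrier gene Slc16a1 were among them in both.

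Receptor binding was mapped in unfed livers at ZT10 by chromatin immunoprecipitation with a mix of antibodies. The labels give 4 libraries, 1 each of C57BL/6 receptor, C57BL/6 input, and receptor in Nr3c1fl/fl livers with GFP and with CRE. Which libraries count as the replicates of the concordant list is not stated, no height is given, and with 1 library per group no test between groups was made. Of 5772 peaks listed as concordant between replicates, 7 lay within 25 kb of 3 members, Slc2a2, Pklr and Khk, where 29.4% of the 14744 tested genes had one. Slc2a2 had 5 of them. The one in its promoter, chr3:28697593-28697801 (mm10), is centred 206 bases before the start site and covers the capitals of the sequence shown above. The others are centred 15.8 kb upstream and 7.88, 16.5 and 24.9 kb downstream of the start site, the last 3 inside the gene. Pklr had 1 peak, chr3:89133420-89133628, centred 2618 bases before its upstream start site and outside the gene. Khk had 1 inside the gene, chr5:30925121-30925329, centred 3666 bases after its start site. All 5772 peaks of this list are rows of the list called against chromatin of CRE livers and overlap, by at least 1 base, a peak called against input, so that finding them in those lists is no separate result.

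**Figure D5:**
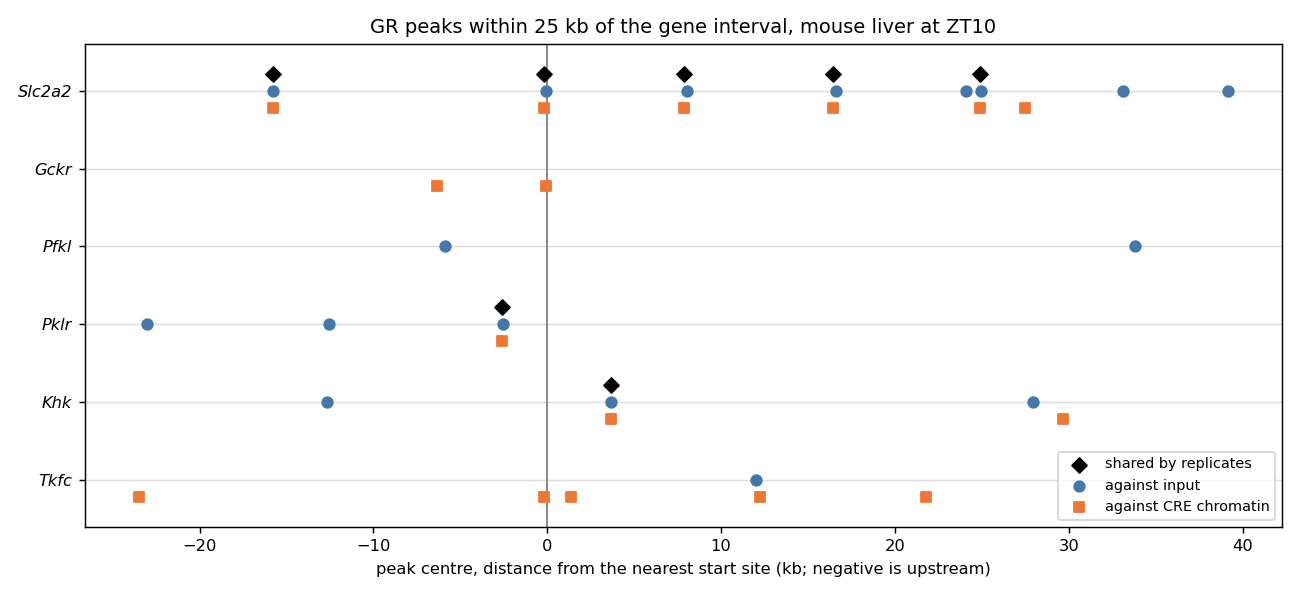
Distance in kb of the centre of each receptor peak from the nearest start site of the gene (x axis, negative upstream) for the 6 genes (rows) and 3 peak lists (diamonds, peaks shared by replicates; circles, called against input; squares, called against CRE chromatin). Slc2a2 has 5 shared peaks, Pklr and Khk 1 each, and Gckr, Pfkl and Tkfc none.

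Gckr, Pfkl and Tkfc had no shared peak within 25 kb, nor within 100 kb, where 53.8% of genes had one. In the longer lists more members had a peak and more of all genes did. Against input, 5 of 6 had one within 25 kb, all but Gckr (63.3% of genes). Against CRE chromatin 5 of 6 had one, all but Pfkl (71.9% of genes). In that last list Gckr had a peak centred 49 bases before its start site and Tkfc one centred 190 bases before its own. These were found in neither of the other lists. The 2 members called lower in CRE livers, Pklr and Khk, each had a shared peak within 25 kb, and so had Slc2a2, which was not called.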

How the data were processed

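Liver RNA was sequenced in 27 C57BL/6 libraries (polyA) and 36 Nr3c1fl/fl libraries (ribosomal RNA depleted), and glucocorticoid receptor chromatin at ZT10. The authors deposited raw read counts per RefSeq transcript row and peak positions without heights. STAR, HOMER, DESeq2 and the build mm10 are named, without roles, per the submitters' processing notes. No source used here gives the counting rule, the use of strand or the peak thresholds.

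Of 40458 rows, 40219 matched a gene symbol (GRCm38.p6), and for each of 24790 genes the row with the highest summed count over both tables was used. Each set was fitted on its own with edgeR 4.0.16 in R 4.3.3 (TMM scaling, its default filter on low counts, quasi-likelihood F-test). Benjamini-Hochberg adjustment covered all 14744 or 15712 tested genes, with 0.05 as threshold, and SE is the absolute log2 fold change over the root of F. CPM are per TMM-scaled total. The fit was tested on simulated data. DESeq2 1.42.0 was an alternative. Peak starts were read as counting from 0. Promoter sequences are from RefSeq.

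The 6 genes and all lists were chosen with earlier results of these data known. Named beside the members were up to 4 list genes per comparison with the smallest p among those called, and 3 genes per member with the highest r. Results of some genes that this rule picks are not reported here, while list counts include them. Replicate numbers did not pair the samples. The rat hepatocyte table was not used here.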

Additional observations from a re-analysis of the deposited data

Results flagged for a closer look

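For 4 of the 6 genes the food effect itself differed between ZT13, ZT14, ZT18 and ZT22, by edgeR's test of the interaction with adjustment over all tested genes. For Pklr (adjusted p = 4.365e-07) the fed against unfed difference was 0.10 ± 0.17 at ZT13 and 2.40 ± 0.18 at ZT22. For Tkfc (adjusted p = 0.001156) it was 0.15 ± 0.14 at ZT14 and 1.22 ± 0.15 at ZT22. For Gckr (adjusted p = 0.00374) it was highest at ZT18, at 0.55 ± 0.09, and -0.05 ± 0.09 at ZT14. For Khk (adjusted p = 0.01139) it was 0.04 ± 0.12 at ZT13 and 0.81 ± 0.12 at ZT22.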

How the results depend on the processing

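Of 2376 results of single members under alternatives, 2348 kept their side of the threshold, 14 lost the call and 14 gained it. The sign changed in 86, in 0 of which the result was called under either setting. Examples are Pklr for food at ZT13 (0.10, or -0.07 without replicate 1 of the fed livers) and Slc2a2 for CRE at ZT10 (-0.08, or 0.12 without replicate 1 of the CRE livers). The members changing with time in fed livers numbered 3 to 5 with 1 library left out. With ZT10 left out, chosen after seeing the data, 1 member was called in the CRE mean, with or without the libraries over 20% in NR_046233. The members with a receptor peak within 25 kb were 3 in the concordant list, 5 against input and 5 against CRE chromatin. The replicate number as a block changed no call of a member (Pklr in the CRE mean -0.37, adjusted p = 0.023, by edgeR). Only 10 of 27 and 13 of 36 libraries correlated best with their own number. Leaving out the libraries over 20% could not be fitted where ZT10 enters, since no GFP library remains there. Counts over all genes moved more than those of members. With DESeq2 they were 339 in place of 162 for food at ZT13, 1860 in place of 1194 for food by time, 195 in place of 109 for CRE at ZT10, 408 in place of 247 at ZT14, 80 in place of 16 at ZT18, 92 in place of 23 at ZT22, 402 in place of 108 for CRE by time, and 10 in place of 0 for the difference of the ZT13 steps. Fitting only the groups compared gave 95 for food at ZT13, 1318 in place of 831 at ZT14 and 1752 in place of 2984 at ZT22, and for CRE 55 in place of 792 at ZT13, 65 at ZT18 and 0 at ZT22, and 0 in place of 464 for the ZT13 step with GFP. The NR_046233 share as covariate gave 52 for CRE at ZT10, 240 in place of 589 at ZT12, 60 by time and 237 for the GFP step. Without libraries over 20% the counts were 105 at ZT12, 10 at ZT22 and 27 for the GFP step, and 1372 in place of 2289 for the CRE mean with ZT10 left out. Without the 2 libraries with high bile duct or pancreas markers, food at ZT14 gave 444. With 1 library left out, food gave 40 to 434 at ZT13, 389 to 655 at ZT14 and 2530 to 3993 in place of 3897 at ZT18. CRE gave 43 to 78, 267 to 483, 375 to 1343, 74 to 222, 1 to 6 and 3 to 58 from ZT10 to ZT22, and 67 to 266 by time. The ZT13 steps gave 149 to 477 with GFP, 512 to 1271 in place of 1474 with CRE, and 0 to 5 for their difference. The cause of these shifts was not tested.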
